A study of Mus musculus with 4 samples.

Results

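The dividing cells described here are the αLPs, the Lin-CD127+FLT3-LPAM-1+ lymphoid progenitors sorted from mouse bone marrow, in which both *Mki67* and *Top2a* reached a level of 1. A level here is the natural log of a cell's reads of a gene per 10000 of its reads, after 1 was added. The rule kept 145 of 8322 cells (1.74%, 95% exact binomial interval 1.47 to 2.05), whatever their level of *Id2*, the gene by which cells of the innate lymphoid lineage are usually kept. Cells came from C57BL/6 mice that were wild-type (WT) or lacked the tandem super-enhancers downstream of *Gata3* (G3SEKO), pooled over several mice of a genotype. Genotypes were marked by hashtags, oligo-tagged antibodies to MHC class I, and the cells were sequenced by TAS-Seq in 2 experiments. Experiment 1 held 737 WT and 63 G3SEKO cells under 3 hashtags each, and experiment 2 held 6075 WT cells (A0302) and 1447 G3SEKO cells (A0303). The label of experiment 2 gives A0302 and A0303 as WT hashtags and no hashtag as G3SEKO. Reading A0303 as G3SEKO goes against that label, and the G3SEKO values of experiment 2 all depend on it. The labels do not say whether a hashtag of experiment 1 marks a mouse or a pool, so a genotype in an experiment was taken as 1 sample. Cells within it are not replicates, and no test between genotypes or stages was made. Binomial intervals cover the counting error of cells only. Copies of a single molecule were not collapsed in the read counts. Poisson intervals of summed reads therefore understate the error of counting molecules, and they hold no spread between cells.

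Innate lymphoid cells type 2 (ILC2s) arise in bone marrow from ILC progenitors (ILCPs), which express PLZF (*Zbtb16*), through committed precursors that express ICOS, to cells that carry ST2 (*Il1rl1*), the receptor of IL-33. A cell that divides first copies its DNA, with licensing factors and polymerases made in late G1 and S phase, and then makes the kinases, spindle proteins and cohesin regulators of mitosis. *Mki67* encodes the Ki-67 protein that coats mitotic chromosomes, *Top2a* the topoisomerase that untangles them, and *Birc5* survivin, a subunit of the chromosomal passenger complex. Both rule genes are made mostly from S phase to mitosis.

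The rule gene *Mki67* lies on chromosome 7 (135689784 to 135716361, minus strand), and the rule gene *Top2a* (98992943 to 99024189, minus strand) and the marker *Birc5*, which the rule did not use, on chromosome 11 (*Birc5*, 117849251 to 117855743, plus strand, all GRCm38). The 250 bases before their RefSeq starts (GRCm38.p6) are shown because the genes of mitosis and of replication differed in what their promoters hold. The windows are chr7:135716380-135716629 (minus strand), chr11:99024190-99024439 (minus strand) and chr11:117848987-117849236 (plus strand). Capitals mark the letters TTTGAA, the cell cycle homology region (CHR) of promoters active in mitosis, and CCAAT, the CCAAT box, on either strand.
Mki67: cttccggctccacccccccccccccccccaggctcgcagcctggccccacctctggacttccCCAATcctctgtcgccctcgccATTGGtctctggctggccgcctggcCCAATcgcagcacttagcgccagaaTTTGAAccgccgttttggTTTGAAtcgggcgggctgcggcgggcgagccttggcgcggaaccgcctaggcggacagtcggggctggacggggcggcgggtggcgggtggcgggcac
Top2a: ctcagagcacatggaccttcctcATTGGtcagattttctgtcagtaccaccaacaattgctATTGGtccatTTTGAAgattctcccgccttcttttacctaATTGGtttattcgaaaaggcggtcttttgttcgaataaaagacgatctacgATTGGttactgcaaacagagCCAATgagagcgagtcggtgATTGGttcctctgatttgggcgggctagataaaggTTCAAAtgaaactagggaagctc
Birc5: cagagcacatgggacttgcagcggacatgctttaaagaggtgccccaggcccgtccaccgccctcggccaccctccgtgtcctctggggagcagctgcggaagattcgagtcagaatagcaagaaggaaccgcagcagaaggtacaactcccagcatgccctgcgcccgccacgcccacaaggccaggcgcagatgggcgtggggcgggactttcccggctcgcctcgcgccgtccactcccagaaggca
The *Mki67* window held 2 CHR and 3 CCAAT matches and the *Top2a* window 2 and 6, while the *Birc5* window held neither. The letters TTTGAA were found in 20.2% of all 27025 promoters read over 300 bases around the start, in 37 of 50 promoters (74.0%) of the mitotic gene lists and in 9 of 39 (23.1%) of the replication lists. Here the mitotic lists are passenger and checkpoint, kinetochore and spindle, condensin and cytokinesis. The replication lists are licensing and helicase, DNA synthesis and chromatin duplication. A CHR together with a CCAAT box was found in 8.97% of all promoters, 54.0% of the mitotic and 15.4% of the replication lists. The letters TTTCCCGC or TTTGGCGC, an E2F motif, went the other way, with 1.798% of all promoters, 5 of 50 mitotic promoters and 13 of 39 replication promoters. In the windows shown no match overlapped another, though the letters of a CHR and a CCAAT box can share a base, and a match is a description of the sequence and not a bound site.

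In experiment 2 the level of *Mki67* in the 86 WT members ran from 1.21 over a median of 2.76 to 5.06, and in the 51 G3SEKO members from 1.08 over 2.70 to 4.09. *Top2a* ran from 1.03 over 2.93 to 4.86 in WT and from 1.15 over 2.91 to 4.46 in G3SEKO. The genotypes overlapped over nearly the whole range of both genes, which chose the members and are not a finding. *Birc5*, which the rule did not use, reached a level of 1 in 50 of 86 WT and 31 of 51 G3SEKO members, against 28 of 5989 and 11 of 1396 other cells. The members just inside the limit had *Mki67* and *Top2a* levels of 3.54 and 1.03, 1.21 and 1.04, and 1.08 and 2.84, and the cells just outside 1.13 and 0.94, 0.92 and 2.83, and 2.35 and 0.92. *Top2a* alone passed the limit in 126 further cells of experiment 2 and *Mki67* alone in 44. The dividing cells were also the more deeply sequenced ones, with a median of 103578 reads and 4422 genes in WT against 28142 reads and 1796 genes in the other WT cells, and 103832 reads against 38852.5 in G3SEKO. The part of depth in the comparisons below was not tested, beyond the values given with cells thinned or with the 5% of cells with most reads left out.

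**Figure D1:**
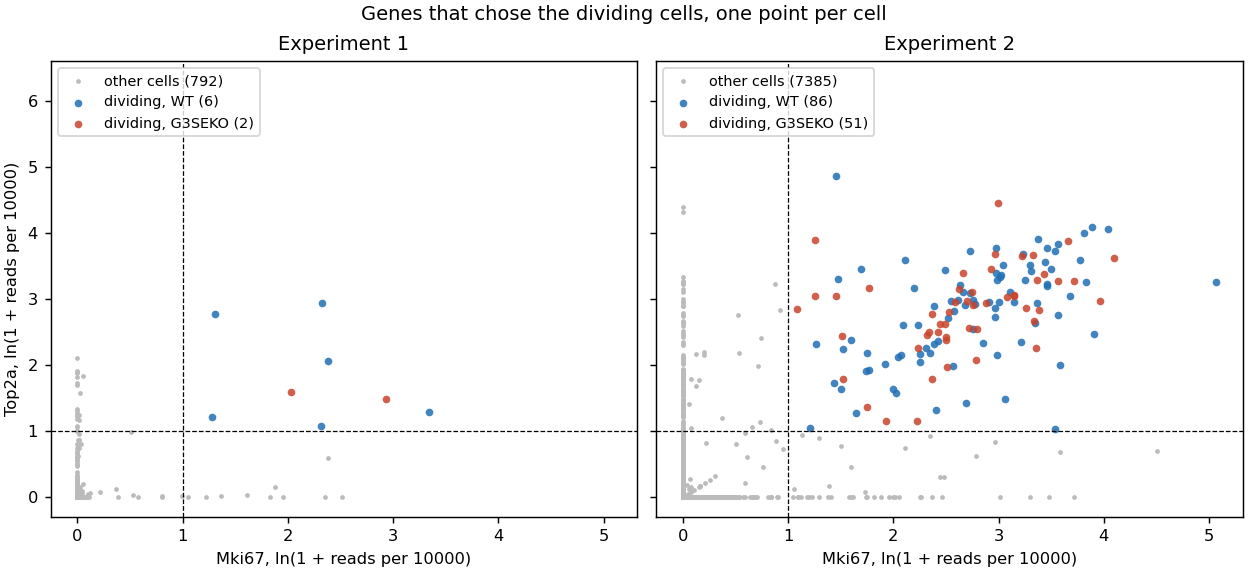
Level of Top2a against Mki67, each as ln(1 + reads per 10000), in every cell of experiments 1 and 2, with dividing cells in colour by genotype and other cells in grey. The 145 dividing cells fill the upper right of both panels without a gap between the 2 genotypes, and most other cells lie at 0 for both genes.

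Dividing cells made up 1.42% of WT αLPs (86 of 6075, interval 1.13 to 1.75) and 3.52% of G3SEKO αLPs (51 of 1447, 2.64 to 4.61) in experiment 2. Experiment 1 gave 0.814% (6 of 737, 0.299 to 1.76) and 3.17% (2 of 63, 0.387 to 11.002), a difference of the same direction that rests on 2 G3SEKO cells. Both of these had an *Id2* level under 1, and among cells at or above it the order turned in experiment 1, with 0 of 43 G3SEKO and 5 of 681 WT cells (0.734%). By hashtag, A0307, A0308 and A0309 of WT held 1 of 275, 2 of 250 and 3 of 212 dividing cells, and A0310, A0311 and A0312 of G3SEKO held 1 of 23, 1 of 9 and 0 of 31. With each cell thinned to the read limit of experiment 2, 1.35% of WT and 3.25% of G3SEKO cells still met the rule. Without the 5% of cells with most reads the shares fell to 0.839% (WT) and 2.14% (G3SEKO). Of the G3SEKO members, 4 of 51 had more than 10% of their hashtag reads from the WT hashtag, against 50 of 1396 other G3SEKO cells and no WT member.

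Stages were then set by their marker genes at a level of at least 1, in the order *Il1rl1* (ST2+), *Ccr6* (LTi/ILC3-like), *Eomes* or *Klrd1* (NK/ILC1-like), *Zbtb16* (ILCP-like) and *Icos* (Icos+ precursor). In WT of experiment 2 the Icos+ precursors, which carry ICOS without *Zbtb16* or ST2, held the largest named share of the dividing cells at this limit, 31 of 86 (36.0%, 26.0 to 47.1), followed by ST2+ cells with 18 (20.9%, 12.9 to 31.0) and ILCP-like cells with 3. With a limit of 0.5 on the stage genes this order turned, with 28 ST2+ and 22 Icos+ members. No WT member of experiment 2 was LTi/ILC3-like or NK/ILC1-like, which allows up to 7.50% of the 40 LTi/ILC3-like and 6.52% of the 46 NK/ILC1-like WT cells. In G3SEKO of experiment 2 the Icos+ precursors held 23 of 51 (45.1%, 31.1 to 59.7), ILCP-like cells 6, ST2+ cells 2 and LTi/ILC3-like cells 1. The remaining 34 WT and 19 G3SEKO members carried none of these markers at the limit. In experiment 1 the 6 WT members were 2 ST2+, 2 Icos+, 1 ILCP-like and 1 NK/ILC1-like, and of the 2 G3SEKO members 1 was ILCP-like and 1 had no marker.

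Set against all cells of a stage, 4.77% of WT Icos+ precursors divided (31 of 650, 3.26 to 6.70), against 0.436% of ST2+ cells (18 of 4126, 0.259 to 0.689) and 1.29% of ILCP-like cells (3 of 232, 0.267 to 3.73). In G3SEKO the Icos+ precursors again had the highest share among the named stages with over 100 cells, 7.06% (23 of 326, 4.52 to 10.4), against 1.60% of ILCP-like cells (6 of 374, 0.591 to 3.46), 0.877% of LTi/ILC3-like cells (1 of 114) and 0 of 112 NK/ILC1-like cells, which allows up to 2.68%. Only 55 G3SEKO cells were ST2+, and 2 of them divided (3.64%, 0.443 to 12.5). Of cells with none of these markers, 3.47% divided in WT (34 of 981, 2.41 to 4.81) and 4.08% in G3SEKO (19 of 466, 2.47 to 6.29). Both intervals overlapped that of the Icos+ precursors of the same genotype. After thinning, the shares were 3.82% of WT and 5.06% of G3SEKO Icos+ precursors and 0.412% of WT ST2+ cells. Without the 5% of cells with most reads they were 2.62%, 4.48% and 0.251%. In experiment 1, 2 of 78 WT and 0 of 6 G3SEKO Icos+ precursors divided, and 1 of 20 G3SEKO ILCP-like cells.

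The stage mix of the genotypes differed, since ST2+ cells were 67.9% of WT and 3.80% of G3SEKO cells. The WT rates weighted by the G3SEKO mix gave 2.54% dividing cells, and the G3SEKO rates weighted by the WT mix gave 3.95%, against the measured 1.42% and 3.52%. The 3.95% rests mainly on the share among G3SEKO ST2+ cells, 2 of 55 (0.443 to 12.5), taken at the WT share of that stage. These weighted shares were computed after the values had been seen.

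**Figure D2:**
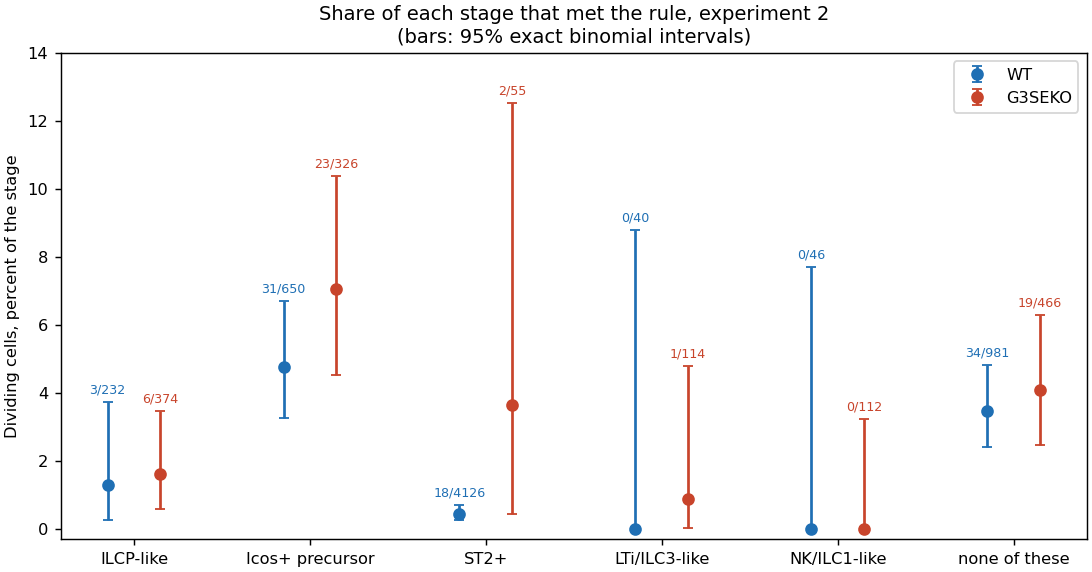
Dividing cells as a percent of all cells of a stage in experiment 2, for WT and G3SEKO, with 95% exact binomial intervals as bars. Icos+ precursors stand at 4.77% in WT and 7.06% in G3SEKO, and WT ST2+ cells at 0.436%.

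The dividing cells without a stage marker were mostly cells with little *Id2*, the inhibitor of E proteins that marks innate lymphoid cells. Of the WT members 37 of 86 had an *Id2* level under 1 (Id2-low), and of the G3SEKO members 19 of 51. All 18 WT ST2+ members were Id2-high, as were 26 of 31 Icos+ members, while 29 of the 34 members without a marker were Id2-low. Among Id2-high cells 0.955% of WT (49 of 5130) and 2.76% of G3SEKO (32 of 1159) divided. Among Id2-low cells that were ST2-negative 10.1% of WT (37 of 367, 7.20 to 13.6) and 6.36% of G3SEKO (18 of 283, 3.81 to 9.87) divided, while 0 of 578 Id2-low ST2+ WT cells did, which allows up to 0.519%. Small classes differed, with 1 of 5 Id2-low ST2+ cells dividing in G3SEKO of experiment 2, and 1 of 17 such cells and 0 of 39 Id2-low ST2-negative cells in WT of experiment 1. The division at an *Id2* level of 1 and the genes named for these classes were chosen after the values were seen, so their values are descriptions.

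Several genes differed between the Id2-low and Id2-high members. *Dntt*, which encodes the terminal transferase of early B and T lineage cells, stood at 943 CPM (reads per 1e6 reads of the summed cells) in WT Id2-low members against 16.3 CPM in WT Id2-high ones, and at 475 against 76.6 CPM in G3SEKO. It reached a level of 1 in 22 of 37 WT and 13 of 19 G3SEKO Id2-low members, and in 1 of 49 and 2 of 32 Id2-high members. Among all Id2-low ST2-negative cells with *Dntt* at that level, 22 of 49 divided in WT (44.9%, 30.7 to 59.8) and 13 of 46 in G3SEKO (28.3%, 16.0 to 43.5). In experiment 1 this was 0 of 14 such cells in WT, which allows up to 21.4%, and 2 of 5 in G3SEKO. Both dividing G3SEKO cells of that experiment were Id2-low with *Dntt* levels of 2.59 and 1.25, and none of its 6 WT members had a *Dntt* level above 0.0108.

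Other genes differed between the same classes in both genotypes. *Ly6d*, a surface protein of lymphoid progenitors, was at 344 CPM in WT Id2-low members and without a read in the WT Id2-high ones, and at 636 against 25.0 CPM in G3SEKO. *Plac8* was the most abundant of these genes, at 2049 against 84.1 CPM and 3232 against 180 CPM. *Myb*, a transcription factor of blood progenitors, was at 865 against 63.9 CPM in WT and 740 against 149 CPM in G3SEKO, and *Cdk6*, a kinase that drives G1, at 1003 against 227 CPM and 827 against 213 CPM. In the reverse direction, *Icos* was at 60.1 CPM in WT Id2-low and 1550 CPM in WT Id2-high members, *Cxcr6* at 20.9 against 417 CPM, *Rora*, a transcription factor of ILC2s, at 106 against 649 CPM, and *Itgb7*, which encodes a chain of the LPAM-1 used in the sort, at 66.0 against 434 CPM. Genes of ILCs were not all in that direction, with *Bcl11b*, a factor of ILC2s and T cells, at 488 against 262 CPM in WT and 399 against 401 CPM in G3SEKO. *Itga4*, which encodes the other chain of LPAM-1, was at 1368 against 780 CPM in WT and 1556 against 392 CPM in G3SEKO. *Tcf7* was at 701 against 40.0 CPM in WT and 671 against 399 CPM in G3SEKO. *Il7r* was at 335 against 615 CPM in WT and 463 against 1049 CPM in G3SEKO. The rule gene *Top2a* was at 1752 against 1782 CPM in WT and 1486 against 1981 CPM in G3SEKO.

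The defining markers of other lineages were mostly near 0 in the Id2-low members, but not all genes of their lists were. *Cd3e*, a chain of the T cell receptor complex, had 1 read in each genotype, *Trac*, the constant part of its alpha chain, had 0 reads, *Ebf1*, which commits B cells, had 0 reads, and *Flt3*, whose product the sort left out, had levels of at most 0.65 in WT and 0.78 in G3SEKO. *Mpo*, a granule enzyme of myeloid progenitors, had 1 read in each genotype. Against that, *Trbc1*, a constant part of the T cell receptor beta chain, summed to 1276 CPM in Id2-low and 459 CPM in Id2-high members of WT, and to 1347 and 907 CPM in those of G3SEKO. The other cells held it as well, with 483 CPM (WT) and 1775 CPM (G3SEKO). *Trgc2*, a constant part of the gamma chain, was at 280 CPM in Id2-low and 23.3 CPM in Id2-high members of WT, and at 934 and 20.7 CPM in those of G3SEKO. *Ighm*, the constant part of the IgM heavy chain, was at 480 CPM in Id2-low and 155 CPM in Id2-high members of WT, and at 769 against 83.8 CPM in G3SEKO. *Gzma*, a granule protease of NK and T cells, was at 267 CPM in WT Id2-low members, 6 of which reached a level of 1, and without a read in the Id2-high members and in the G3SEKO Id2-low ones. *Bst2*, which is abundant in plasmacytoid dendritic cells, summed to 153 CPM (WT) and 322 CPM (G3SEKO) in Id2-low members, where *Siglech*, a defining receptor of those cells, had 0 reads. The part of other cell types in these values was not tested. Some genes came from single cells. In 1 WT member *Lyz2*, lysozyme of myeloid cells, had a level of 5.46, in 1 G3SEKO member 1.90, and 2 WT members carried *Klf1*, an erythroid transcription factor, at levels of 1.25 and 1.32 together with *Car1* at 3.33 and 3.48. These cells are members by the rule and were kept.

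**Figure D3:**
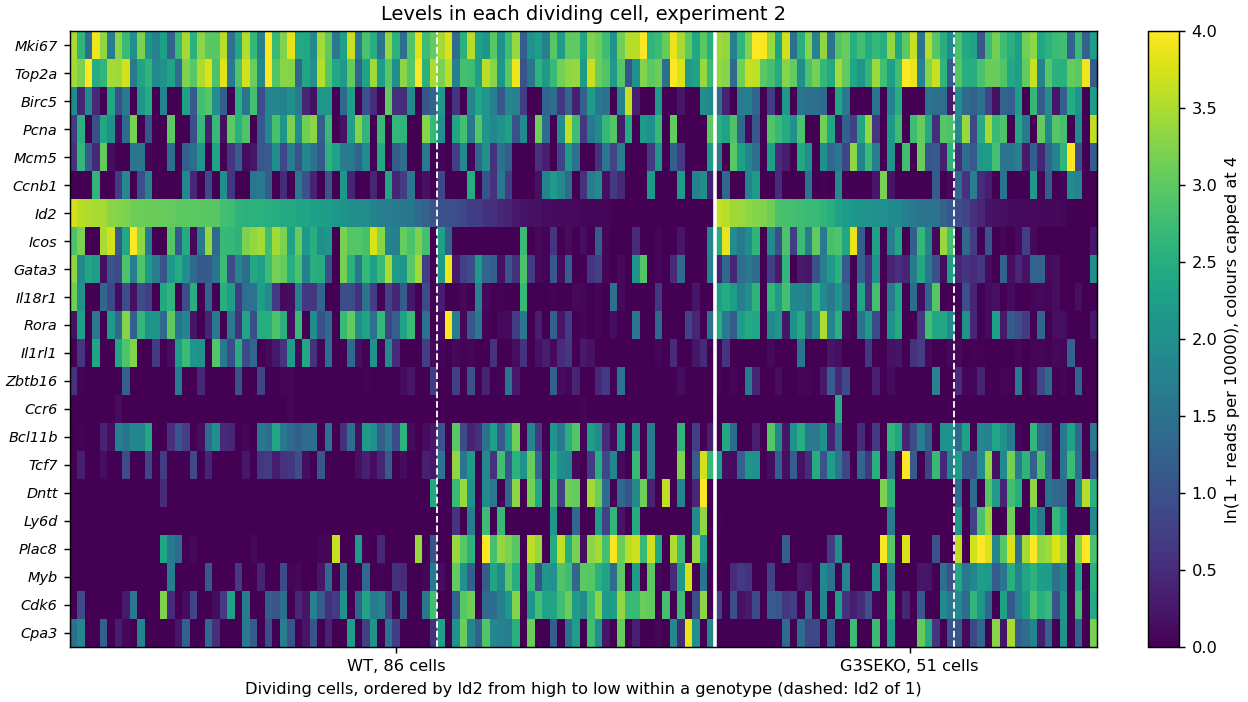
Level, as ln(1 + reads per 10000), of cell cycle, stage and early lymphoid genes in each dividing cell of experiment 2, with one column per cell, ordered by Id2 from high to low within a genotype. In WT, Icos reached a level of 1 in 42 of 49 cells left of the dashed line at an Id2 level of 1 and in 5 of 37 cells right of it, and Dntt in 1 and 22, so single cells on either side depart from the pattern.

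The 3 dividing ILCP-like cells of WT had little *Id2*. They had *Zbtb16* levels of 1.23 to 1.53 against a median of 2.21 in the other ILCP-like cells, had *Id2* levels of at most 0.40, and all 3 carried *Dntt* at a level of at least 1. Among Id2-high ILCP-like cells 0 of 216 divided in WT, which allows up to 1.39%, and 3 of 349 in G3SEKO (0.860%, 0.178 to 2.49). *Zbtb16* summed to 39.4 CPM in dividing and 87.9 CPM in other WT cells, and to 62.3 and 353 CPM in G3SEKO. In experiment 1 the WT member with *Zbtb16* at 1.82 was Id2-high, with *Icos* at 2.28 and *Gata3* at 0.07.

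For each gene, the CPM of dividing cells was compared with that of the other cells of the same genotype and experiment, and a gene counted as higher or lower when it differed by at least 2-fold in WT of both experiments. Of 7769 genes, 570 were higher (7.34%) and 427 lower (5.5%). The numbers depended on the requirement of both experiments, with 903 higher and 839 lower in WT of experiment 2 alone and 1494 and 2085 in the 6 members of experiment 1 alone. Since the members were chosen by 2 genes of mitosis, the counts of cell cycle genes follow from the rule and are given as a description. Across 10 lists, 110 of 135 cell cycle genes compared were higher and 0 lower, with a median log2 ratio of 3.83 in WT and 3.39 in G3SEKO of experiment 2 and 3.57 in WT of experiment 1, against -0.01, -0.10 and -0.07 over all genes. By role, 16 of 17 licensing and helicase genes, 18 of 21 genes of DNA synthesis, 7 of 9 of chromatin duplication, 11 of 16 cyclins and CDKs, 7 of 12 transcription factors, 13 of 15 passenger and checkpoint genes, 23 of 24 kinetochore and spindle genes, 7 of 8 condensin genes and 7 of 9 cytokinesis genes were higher.

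In experiment 2, *Rrm2*, the subunit of ribonucleotide reductase that supplies DNA synthesis, was at 463 CPM in dividing and 5.93 CPM in other WT cells. *Ube2c*, which loads ubiquitin for the anaphase-promoting complex, was at 562 against 3.98 CPM, and *Ccna2*, cyclin A2 of S and G2 phase, at 329 against 2.47 CPM. The dividing cells held transcripts of both replication and mitosis. Outside the lists the genes with the largest ratios in all 3 sums compared included *Mxd3*, *Aspm*, *Pbk*, *Pimreg*, *Melk*, *Kif4*, *Cdca3*, *Pclaf* and *Esco2*, of which *Pclaf*, a partner of PCNA, was the most abundant at 883 against 15.9 CPM. *Aspm*, a spindle pole protein, was at 223 against 1.30 CPM, and *Esco2*, which acetylates cohesin, at 182 against 2.39 CPM.

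Some cell cycle genes did not pass. *Ccnd2*, the D cyclin of lymphocytes, was at 173 CPM in dividing and 604 CPM in other WT cells of experiment 2 but at 380 and 404 CPM in experiment 1. *Ccnd3* was at 227 and 114 CPM in experiment 2 and 173 and 142 CPM in experiment 1. Of 4 inhibitors of CDKs, *Cdkn2c*, which binds CDK4 and CDK6, was higher (84.9 against 5.84 CPM), and *Cdkn1b*, which encodes p27, did not pass at 62.3 against 134 CPM in experiment 2 and 67.3 against 128 CPM in experiment 1. *Pttg1*, securin, was at 27.9 against 44.6 CPM in experiment 2 and 52.5 against 32.8 CPM in experiment 1. None of 10 genes of growth and MYC passed, and *Myc* itself was at 24.7 against 83.1 CPM in experiment 2 and 72.5 against 101.2 CPM in experiment 1.

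Single cells differed in where in the cycle they stood. Over the 137 members of experiment 2, the summed CPM of the replication lists and that of the mitotic lists, which hold *Birc5* but neither rule gene, had a Spearman correlation of -0.56 (Pearson -0.51), which describes cells of 1 sequencing run that share its depth. Unlike the promoter counts, these sums left out the chromatin duplication and condensin lists. Both sums lay above the 95th percentile of the other cells (3717 and 1773 CPM) in 92 members, replication alone in 10, mitosis alone in 33 and neither in 2. In WT Icos+ members the replication sum ran from 1837 over a median of 7415 to 22300 CPM, and in WT ST2+ members from 35.8 over 6621 to 14259 CPM, so the stages overlapped. In experiment 1 both WT Icos+ members were at the replication end, with 11674 and 12496 CPM for replication and 1902 and 1461 CPM for mitosis, and both G3SEKO members at the mitotic end, with 9989 and 10989 CPM for mitosis.

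**Figure D4:**
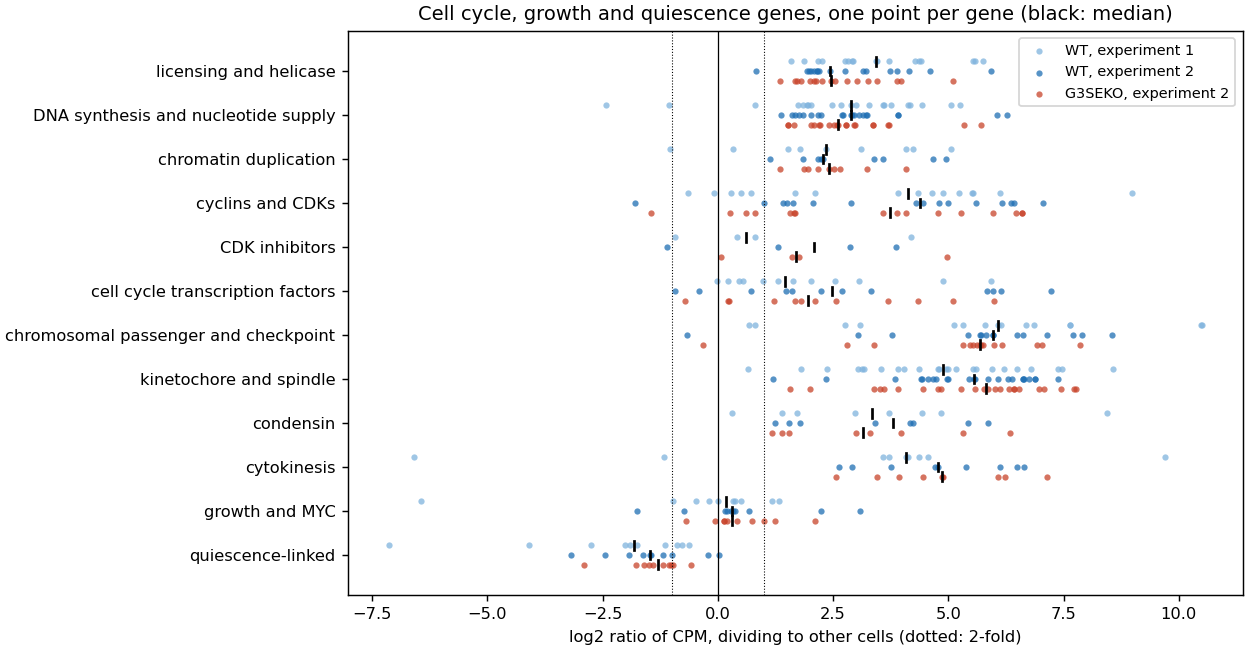
Log2 ratio of CPM in dividing to other cells for each gene of the cell cycle, growth and quiescence lists, with one point per gene and sum compared and the median in black; dotted lines mark 2-fold. The medians of the replication and mitotic lists lie to the right, those of the growth genes near 0 and those of the quiescence-linked genes to the left, with single genes of these lists on the other side.

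Genes linked to quiescence were lower in dividing cells. Of 10 compared, 7 were at least 2-fold lower in WT of both experiments, which are *Klf2*, *Klf6*, *Btg1*, *Btg2*, *Tob1*, *Foxo1* and *Txnip* (beside 5.5% over all genes), with none higher and a list median of -1.47 in WT of experiment 2 against -0.01 over all genes. *Btg1*, an antiproliferative cofactor of mRNA decay, was at 111 CPM in dividing and 608 CPM in other WT cells, and at 66.3 against 494 CPM in G3SEKO. *Txnip*, which limits glucose uptake, was at 127 against 1146 CPM in WT and 115 against 352 CPM in G3SEKO. *Il7r*, which encodes the CD127 used in the sort, was at 499 against 2075 CPM in WT and 733 against 2394 CPM in G3SEKO, and at 489 against 1736 CPM in WT of experiment 1.

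Because dividing cells were spread unevenly over the stages, the same genes were read within the WT Icos+ precursors of experiment 2, 31 dividing and 619 other cells. *Il7r* was at 479 against 1836 CPM, *Txnip* at 135 against 816 CPM, *Btg1* at 152 against 492 CPM and *Ly6a*, the Sca-1 antigen, at 168 against 990 CPM. *Il2ra*, which encodes CD25, was at 18.1 against 364 CPM. *Gata3* was at 920 against 1023 CPM and *Il18r1* at 297 against 258 CPM. Within WT ST2+ cells, 18 dividing and 4108 other, *Il7r* was at 894 against 2102 CPM and *Btg1* at 151 against 644 CPM, while *Klf2*, a factor that keeps lymphocytes quiescent, was at 98.9 against 103 CPM.

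Among the lists of lineage genes, 2 of 7 ILCP genes were lower in dividing cells (*Zbtb16* and *Tox2*) and 3 of 4 genes of mature ILC2s (*Il1rl1*, *Il2ra* and *Il9r*), beside 5.5% lower over all genes. Of 14 cytokine receptors 4 were lower, which are *Il7r* and the last 3 named. *Cpa3*, a protease of mast cells and progenitors, was higher, at 303.4 against 67.0 CPM, with 555 CPM in the Id2-low and 126 CPM in the Id2-high members. None of 6 genes of ILC2 commitment passed in either direction. The 10 lowest genes outside the lists were *Lilrb4a*, *H2-Eb1*, *Csf1*, *Sdc4*, *Arrdc4*, *Cacna1e*, *Icosl*, *H2-Aa*, *Bcas1* and *Tcp11l2*. Of these, *H2-Aa* and *H2-Eb1*, chains of MHC class II, were at 10.8 and 2.87 CPM in dividing WT cells of experiment 2 against 104 and 59.1 CPM in the others, and at 0.79 and 0.26 against 587 and 351 CPM in G3SEKO.

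Between the genotypes, 142 of 7603 genes were at least 2-fold higher (1.87%) in the 51 G3SEKO than in the 86 WT members of experiment 2, and 231 at least 2-fold lower (3.04%), also with the cell holding most reads of the gene left out. After thinning these counts were 257 and 390 of 7464 genes, and with no minimum CPM 694 and 1534 of 20932. In Id2-high members alone 4.14% of 7436 genes were higher and 5.45% lower. Experiment 1 held too few members to compare. Few genes of division passed. Of 141 cell cycle genes 139 passed in neither direction, with a median log2 ratio of 0.03 against 0.00 over all genes. *Cdkn1c*, which encodes the CDK inhibitor p57, was higher in G3SEKO (41.5 against 4.27 CPM, with reads in 9 of 51 and 5 of 86 members), and *E2f7*, a repressor of E2F targets, was lower (12.6 against 69.9 CPM).

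*Gata3*, on chromosome 2 from 9857078 to 9890034 (GRCm38) and the gene whose super-enhancers were deleted, was lower in dividing G3SEKO cells. Its level ran from 0 over a median of 1.47 to 3.90 in WT and from 0 over 0.56 to 2.65 in G3SEKO, and 55 of 86 against 21 of 51 members reached a level of 1. The genotypes overlapped cell by cell. The sums were 555 CPM (Poisson interval of reads 541 to 569) and 203 CPM (193 to 213), without the spread between cells. The log2 ratio was -1.45, or -1.34 without the cell with most reads. The ratio was -1.65 within Icos+ members (920 and 293 CPM), -1.37 in Id2-high members (840 and 325 CPM) and -0.60 in Id2-low members (150 and 98.2 CPM). In the cells that did not divide it was -1.33 (989 and 394 CPM).

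Of 12 genes that the study named for the genotypes, which were picked on these samples, 5 were lower and 0 higher, beside 3.04% lower over all genes. One of them was *Gata3*. For *Il1rl1* the sums were 187 CPM (WT) and 14.9 CPM (G3SEKO), a log2 ratio of -3.63, and this gene also set the ST2+ class, which held 18 of 86 WT and 2 of 51 G3SEKO members. The others, with the WT value again first, were *Inpp4b*, a lipid phosphatase, at 169 and 44.8 CPM, *Slc7a8*, an amino acid transporter, at 39.6 and 6.75 CPM, and *Il2ra* at 47.8 and 13.9 CPM. *Ptpn13*, a phosphatase, at 39.9 and 25.8 CPM, and *Cnot6l*, a deadenylase subunit, at 465 and 242 CPM, did not pass. Of the named genes with higher sums in G3SEKO, *Pecam1*, an adhesion molecule, was at 123 CPM in G3SEKO against 64.3 CPM in WT (log2 0.93) and *Atp8b4*, a lipid flippase, at 162 against 84.1 CPM (log2 0.95), both short of 2-fold. Within Id2-high members their log2 ratios were 2.41 and 1.38. The text of the study writes *Atp8b*, which was read here as *Atp8b4*. *Ikzf3*, a factor of lymphocytes, was at 167 against 146 CPM. Of 8 ILCP genes 2 were higher in G3SEKO, beside 1.87% over all genes, *Tox2* (73.3 against 21.9 CPM in WT) and *Nfil3* (40.7 against 5.31 CPM, with reads in 4 of 51 members). Also higher were *Cd34*, a progenitor antigen, at 89.2 against 25.5 CPM and *Ncr1*, a receptor of NK cells and ILC1s, at 53.3 against 0.348 CPM with reads in 4 members. *Car1* and *Gzma* were lower, with all 1026 WT reads of *Car1* in 2 cells and those of *Gzma* in 10 Id2-low cells.

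*Il18r1*, a receptor chain for IL-18 of ILCPs, did not pass over all members (335 CPM in G3SEKO against 172 CPM in WT, log2 0.96). It was, in the same order, at 698 against 264 CPM in Id2-high members (log2 1.40) and at 24.8 against 41.5 CPM in Id2-low members (log2 -0.73). *Tcf7*, a factor of early ILCs and T cells, was at 399 against 40.0 CPM in Id2-high and at 671 against 701 CPM in Id2-low members. *Icos* was at 463 against 935 CPM over all members, with a log2 ratio of -0.85 without the cell with most reads. Whether the ratios of the Id2 classes differ was not tested.

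Among genes with reads in enough members of the higher genotype (at least 33.3%), the 10 highest in G3SEKO were *Lingo4*, *Cnpy3*, *Rasa3*, *Spice1*, *Zfp994*, *Gemin8*, *Cmah*, *Ezh1*, *1500011B03Rik* and *Ppp1r18*. *Lingo4* was at 66.0 against 3.48 CPM with reads in 18 of 51 and 7 of 86 members, and it was also higher in the other cells (129 against 12.3 CPM). The 10 lowest were *Il1rl1*, *Wdfy2*, *Birc3*, *Rnpc3*, *Bbs4*, *Tprkb*, *Snx12*, *Nlrc3*, *Rnpepl1* and *Zbtb11*. *Birc3*, an inhibitor of apoptosis, was at 6.61 against 44.5 CPM in the members and at 54.6 against 146 CPM in the other cells, whereas *Wdfy2* was at 5.42 against 47.6 CPM in the members and at 35.3 against 45.9 CPM in the others.

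**Figure D5:**
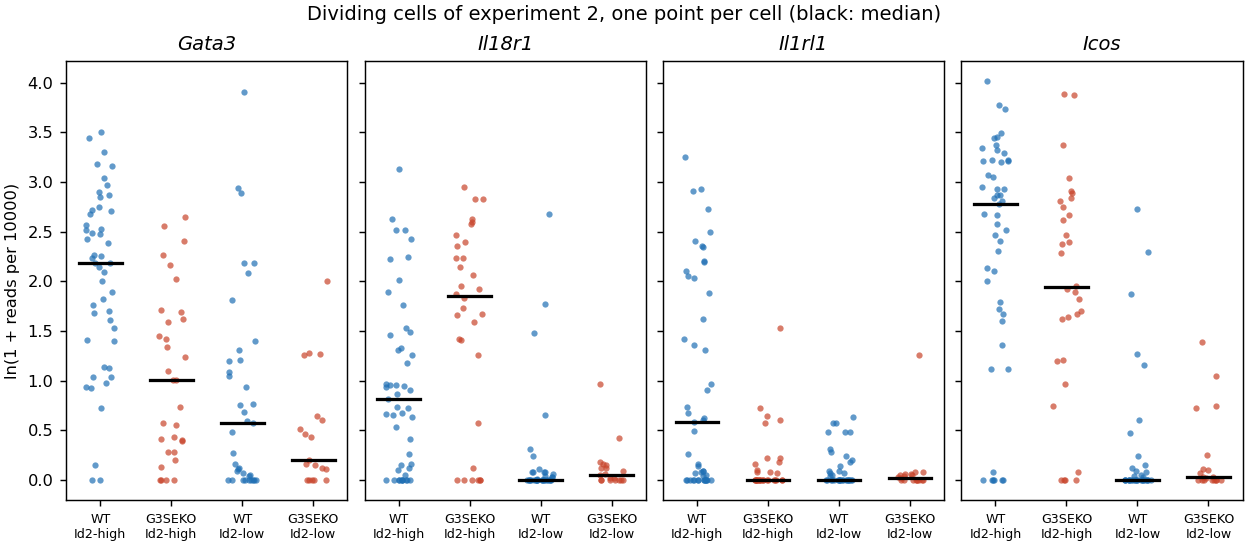
Level, as ln(1 + reads per 10000), of Gata3 and further genes in each dividing cell of experiment 2, in 4 columns by genotype and Id2 class with the median in black. Gata3 has a median of 2.19 in WT and 1.01 in G3SEKO Id2-high members and of 0.57 and 0.20 in Id2-low members.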

How the data were processed

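Single-cell RNA-seq libraries and hashtag libraries of αLPs from 2 experiments were used. The authors removed adapters, aligned the reads with Bowtie2 to GRCm38 (mm10), used Seurat 4 for their own analysis, and deposited unnormalised counts of reads by gene and cell, in which the name of a cell carries its hashtag call. Reads of one molecule were not collapsed, and the deposited hashtag counts have the same form. The members and gene lists were chosen with earlier results of these data known.

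Cells with 1 hashtag call, at least 83012 reads (experiment 1) or 6733 reads (experiment 2) and at most 10% mitochondrial reads were kept, which left 800 of 1033 and 7522 of 7630 listed cells. Doublets were left out by the authors' hashtag calls alone, without a caller that reads expression. Of the barcodes, 7 occurred in both experiments and 0 among dividing cells. Reads of a group of cells were summed and given as CPM. Log2 ratios were taken after adding 2 reads, scaled to each sum, for genes with a mean of at least 20 CPM over the sums compared. A gene was called at a difference of at least 2-fold, for the genotypes also without the cell with most of its reads. Named genes are those of the lists, the 10 with the largest ratio in each direction, and, chosen after seeing the values, genes that separated Id2 classes. Some named genes are not reported here. The limits for counts of 0 correspond to 3 cells. Intervals are 95% exact binomial (Clopper-Pearson) or exact Poisson intervals, computed with Python 3.11.15, scipy 1.17.1 and pandas 2.3.3. The ratio rules were tested on simulated data with 200 changed genes. Alternatives were other limits on the rule genes, *Id2* and stage genes, thinning to 6733 reads, the 5% of cells with most reads left out, 10 added reads, no minimum, the mean of each cell's CPM, each experiment alone and ST2-negative members alone. Positions are from GENCODE M21 and promoters from RefSeq (250 bases before to 50 after the start).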

Additional observations from a re-analysis of the deposited data

Results flagged for a closer look

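The cells that the authors called doublets in experiment 2, which no comparison above used, also held cells that met the rule. They were 4 of 99 (4.04%, 95% exact binomial interval 1.11 to 10.02), against 1.82% (137 of 7522) of the cells with 1 hashtag, and had a median of 52654 reads over all 99 cells.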

How the results depend on the processing

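Of 130 values under alternative settings for the shares, stages and gene counts, 98 moved by less than their interval (counts of genes by less than 1.5 times), and 32 moved by more. The 98 include 13 values for a hashtag fold of at least 2, which left out 0 cells and so changed nothing. Orders that turned include that of WT ST2+ and Icos+ members with the stage limit of 0.5 and that of the genotypes in experiment 1 with *Id2* of at least 1 (0 of 43 G3SEKO and 5 of 681 WT cells). At least 1 read of each rule gene in place of a level of 1 gave shares of 10.4% (WT) and 20.6% (G3SEKO) for experiment 1, 2.12% (WT) for experiment 2 and 0.897% of WT ST2+ cells. A limit of 1.5 left 0.271% of WT cells in experiment 1. With *Id2* of at least 1, 0% of G3SEKO cells in experiment 1 and 0.955% of WT cells in experiment 2 divided, the WT members were 36.7% ST2+, 53.1% Icos+ and 10.2% without a marker, and the G3SEKO members 65.6% Icos+ and 18.8% without. Without the 5% of cells with most reads, 0.839% of WT and 2.14% of G3SEKO cells, 0.251% of WT ST2+ cells and 2.62% of WT and 4.48% of G3SEKO Icos+ precursors divided. A limit of 0.5 on the stage genes made 32.6% of WT members ST2+ and 25.6% Icos+. Genes higher and lower in dividing cells were 1004 (4.35%) and 5827 (25.3%) with no minimum CPM, and 11.6% to 19.2% and 10.8% to 26.8% in single experiments (570 and 427 in both). Genes higher in G3SEKO were 694 (3.32%) with no minimum, 216 (2.88%) as the mean of each cell's CPM, 257 (3.44%) after thinning and 4.14% of 7436 with *Id2* of at least 1 (142 or 1.87% as reported), and lower ones 1534 (7.33%), 390 (5.23%) after thinning and 405 (5.45%) with *Id2* (231 or 3.04%). The cause of these moves was not tested.

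Both experiments held both genotypes, whose values are given side by side, and no fit with the experiment as a block was run. Experiment 1 held 6 WT and 2 G3SEKO members, so its shares and ratios rest on few cells.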
